A study of Mus musculus with 12 samples.

Results

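Slc26a6 and Vipr1 are 2 genes of mouse chromosome 9 that serve ion and fluid secretion, and their H3K4me3 domains were followed through 4 stages of small-intestinal epithelium. H3K4me3, trimethylation of lysine 4 on histone H3, was profiled by ChIP-seq, that is by sequencing of DNA pulled down with an antibody to the mark, in 8 libraries. The members were chosen by position, as every called peak that overlapped a window of the build mm9: chr9:108752000-108767000 for Slc26a6 and chr9:121546000-121560000 for Vipr1. Each of the 8 lists held exactly 1 peak in each window, and these peaks formed 2 of the 24352 regions into which all lists merged. The windows were taken as given for the 2 genes, since no mm9 gene annotation was used here, and they were picked with the peak lengths known. All lengths, ranks and changes of the 2 genes are therefore a description, with no test.

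The groups, with 2 libraries each, were embryonic epithelium at E12.5, embryonic epithelium at E14.5, adult Lgr5+ stem cells (ISC) and adult enterocytes. All mice were of a mixed C57BL/6 CD1 strain. Embryonic cells were sorted from small intestine as EpCAM+ and negative for CD31 and CD45, markers of endothelium and leukocytes. The adult groups came from Lgr5EGFP-Cre-ERT males at postnatal day 60, where stem cells were the cells with strong Lgr5-EGFP fluorescence. Enterocytes were sorted by EpCAM without CD31 or CD45, a gate that other epithelial cells of the fraction also pass. No defining markers of these cell types were looked up, because gene positions in mm9 were not used here. The labels describe the libraries of each group as biological duplicates, and they do not say how many animals went into each. In bulk chromatin, more cells that carry the mark and a longer domain per cell cannot be told apart.

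Slc26a6 encodes an anion exchanger of the apical membrane that moves chloride, bicarbonate and oxalate, and in the small intestine it is known for bicarbonate and oxalate secretion on the villus. Vipr1 encodes VPAC1, a receptor for vasoactive intestinal peptide. The peptide raises cyclic AMP in epithelial cells, which opens chloride channels and drives fluid into the lumen. H3K4me3 marks the promoters of active and poised genes, usually as a narrow peak, and at some genes it spreads over several kilobases. The length of the called peak was the measure used here.

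The promoters of both genes are shown because H3K4me3 is a promoter mark and CpG-rich promoters usually carry it in mammals. They were found for both genes in RefSeq's promoter table of GRCm38.p6 (plus strand, 250 bases before to 50 bases after the annotated start). This is not the build of the peaks, so the core was not placed on them. Written 5′ to 3′, capitals mark GC boxes (GGGCGG) and CCAAT boxes (CCAAT) on either strand. The promoter of Slc26a6 is chr9:108853793-108854092 and that of Vipr1 is chr9:121642466-121642765, both in GRCm38.p6.
Slc26a6: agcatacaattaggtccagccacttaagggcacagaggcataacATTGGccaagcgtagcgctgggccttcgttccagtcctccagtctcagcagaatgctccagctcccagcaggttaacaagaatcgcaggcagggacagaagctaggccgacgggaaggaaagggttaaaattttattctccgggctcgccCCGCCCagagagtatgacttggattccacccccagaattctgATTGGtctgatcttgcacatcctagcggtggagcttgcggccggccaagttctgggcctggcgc
Vipr1: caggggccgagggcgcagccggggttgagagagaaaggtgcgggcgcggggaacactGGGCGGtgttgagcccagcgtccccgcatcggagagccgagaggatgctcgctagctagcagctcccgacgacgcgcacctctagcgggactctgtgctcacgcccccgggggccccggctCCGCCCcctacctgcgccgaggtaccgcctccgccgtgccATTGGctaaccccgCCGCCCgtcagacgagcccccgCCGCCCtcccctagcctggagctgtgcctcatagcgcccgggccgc

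The Vipr1 promoter was the richer in CpG. It held 35 CpG dinucleotides in 300 bases, with 73.7% G and C and an observed over expected CpG ratio of 0.864, and 84.5% of the 32851 promoters in the table had a lower ratio. The Slc26a6 promoter held 13 CpG, with 56.0% G and C and a ratio of 0.553, and 61.3% of promoters had a lower ratio. The median promoter held 7 CpG. Both promoters had a CCAAT box (2 matches in Slc26a6, 1 in Vipr1) and a GC box (1 and 4 matches). CCAAT, searched after the sequences had been seen, was present in 37.4% of all promoters and GGGCGG in 35.7%, so both are common. Neither window held, on either strand, the letters TATAAA of the box that binds TBP (present in 13.6% of promoters), AGATAA for GATA factors (11.2%), CAATAAA for CDX factors (4.60%), CAAAGTC for HNF4 (4.44%) or TGACGT for the cyclic AMP response element (7.51%). No motif overlapped another.

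The Slc26a6 domain was short in the embryo and among the longest of the list in enterocytes. The E12.5 libraries had peaks of 439 and 579 bp (replicates 1 and 2, in this order throughout), the E14.5 libraries 888 and 984 bp, the ISC libraries 1633 and 1903 bp and the enterocyte libraries 5322 and 8474 bp. No groups overlapped (scaled as below, 2.16% of 17679 regions called in at least 2 libraries were longer at every step without overlap), and both enterocyte libraries stood far above the other 6. The mean was 509 bp ± 99.0 for E12.5 (SD, n = 2), 936 bp ± 67.9 for E14.5, 1768 bp ± 191 for ISC and 6898 bp ± 2229 for enterocytes, 13.6 times the first of these. The large SD in enterocytes came from the difference between its 2 libraries (5322 and 8474 bp), each of which was longer than any library of another group.

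The Vipr1 domain was also shortest at E12.5 and longest in enterocytes, but most of its length was already present in ISC. Its peaks measured 190 and 681 bp in the E12.5 libraries, 1148 and 1531 bp in the E14.5 libraries, 2488 and 3339 bp in the ISC libraries and 3363 and 4451 bp in the enterocyte libraries. The groups did not overlap, although the longer ISC library and the shorter enterocyte library nearly met, at 3339 and 3363 bp. The means were 435.5 bp ± 347 (SD, n = 2), 1339.5 bp ± 271, 2913.5 bp ± 602 and 3907 bp ± 769 in the same order. The 190 bp at E12.5 equalled the fragment length of 190 bp that MACS, the authors' peak caller, had estimated for that library, and no peak in its list was shorter.

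**Figure D1:**
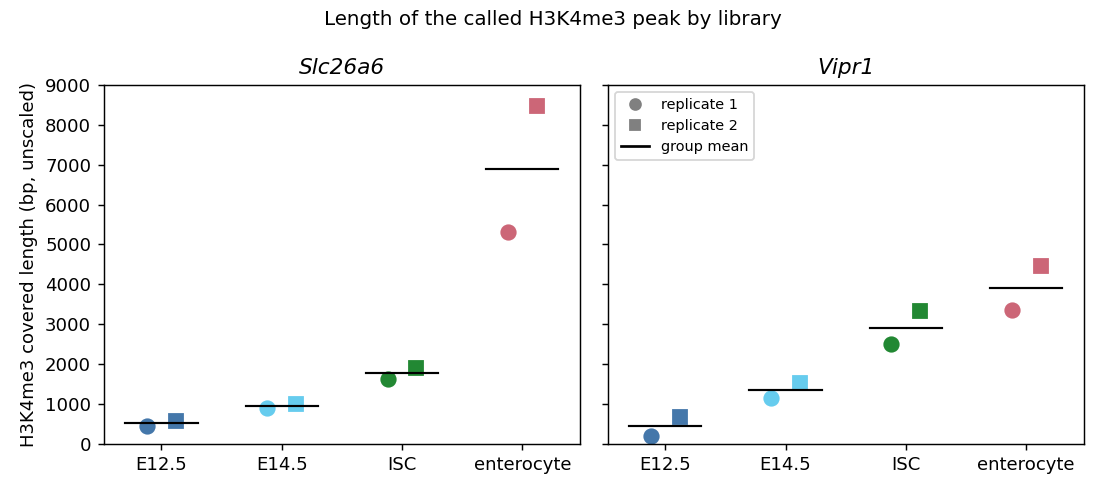
Length of the single called peak (bp, unscaled, vertical axis) at Slc26a6 and Vipr1 in the 4 groups, with a circle for replicate 1, a square for replicate 2 and a line at the group mean. Slc26a6 stayed at or below 1903 bp outside enterocytes and reached 5322 and 8474 bp there, while Vipr1 was at 2488 and 3339 bp in ISC.

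Lists differed in how long peaks were in general, so each library was also scaled to the same median length of the 8903 regions that all 8 lists share. After scaling, Slc26a6 had 610 and 690 bp for E12.5, 709 and 770 bp for E14.5, 1734 and 1712 bp for ISC and 5744 and 7947 bp for enterocytes. The embryonic stages thus lay close together, and the ISC libraries were nearly equal. Vipr1 had 264 and 811 bp for E12.5, 917 and 1198 bp for E14.5, 2641 and 3004 bp for ISC and 3629 and 4174 bp for enterocytes. For Vipr1 the widest gap between neighbouring stages was that between E14.5 and ISC.

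Sequencing depth varied between libraries, which held between 12821255 tags (enterocyte replicate 1) and 43259380 tags (E14.5 replicate 1). Enterocyte replicate 1 had a longer peak at both genes than every ISC and embryonic library. Within E12.5, ISC and enterocytes, the deeper library had the longer unscaled peak at both genes. At E14.5 the deeper library had the shorter one at both. The part of depth in the differences between replicates or between groups was not tested.

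Across the embryonic stages, the Slc26a6 domain differed little once list-wide length was taken into account. The log2 change of scaled length was 0.15 ± 0.16 (SE from limma, fitted over 17679 regions called in at least 2 libraries). The fit pools all 4 groups, so a gene has the same SE at every step. The median over all these regions was 0.19, and 52.3% of them had a larger change. Among the 8903 called in all 8 libraries the median was -0.022, and 31.4% had a larger change. The change of Slc26a6 turned to -0.44 with quantile normalization and was 0.69 without scaling and 0.077 with a pseudocount of 1000 bp. With peaks of a −log10 q under 10 left out, no E12.5 peak remained at either gene. It was 0.059 without E12.5 replicate 1. The step of Vipr1 was 0.87 ± 0.37, and 29.3% of the 17679 regions and 2.79% of the 8903 called in all 8 libraries had a larger one. It was 1.38 without scaling, 0.38 after quantile normalization and 0.44 with a pseudocount of 1000 bp. It depended on the E12.5 libraries, with 0.29 without replicate 1 and 1.44 without replicate 2. Without any scaling the median change of all regions was 0.74, the change of Slc26a6 minus that median was -0.05 and that of Vipr1 minus it 0.65. Both libraries were longer at E14.5 than both at E12.5 for 2 of 2 genes, as for 41.9% of the 17679 regions and 26.2% of the 8903.

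Between E14.5 and adult stem cells, both domains were longer in ISC. Slc26a6 had a log2 change of 1.03 ± 0.16, a 2.05-fold difference on the scale of log2(scaled bp + 200), and Vipr1 had 1.27 ± 0.37, or 2.41-fold. Of the 17679 regions, 693 (3.92%) had a larger change than Slc26a6 and 499 (2.82%) a larger one than Vipr1. Among the 8903 called in all 8 libraries these numbers were 19 and 4. With a pseudocount of 1000 bp Slc26a6 had 0.65. The direction held for both genes without scaling, where the median change of all regions was -0.33, and with quantile normalization. With weaker peaks left out (a −log10 q under 10) it held for Vipr1 (1.33), while for Slc26a6, whose peak in ISC replicate 1 had a −log10 q of 5.93 and dropped out, the change was -0.57. Both ISC libraries were longer than both E14.5 libraries for 2 of 2 genes, as for 20.8% of the 17679 regions and 26.7% of the 8903.

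From stem cells to enterocytes, the absorptive cells of the villus, the Slc26a6 domain had the larger difference in length and Vipr1 the smaller one. Slc26a6 had a log2 change of 1.86 ± 0.16, a 3.62-fold difference, which ranged from 1.63 without enterocyte replicate 2 to 2.11 without enterocyte replicate 1. The pooled SD of its ISC and enterocyte libraries alone was 0.228. In scaled bp the Slc26a6 gain of 5123 was the largest of the 8903 regions called in all 8 libraries. By log2 change 4 of them and 418 of the 17679 (2.36%) exceeded Slc26a6. Without peaks of a −log10 q under 10, where ISC replicate 1 has none, the log2 change was 3.48. Unscaled, none of the 8449 regions with 1 peak in each library gained more. Vipr1 had a log2 change of 0.44 ± 0.37, little more than its SE, and 13.9% of the 17679 regions and 8.59% of the 8903 had a larger one. That SE pools all 4 groups, and the pooled SD of the ISC and enterocyte libraries alone was 0.129. With quantile normalization the change of Vipr1 was 0.23 ± 0.20. The difference between the genes at this step was not tested. Both enterocyte libraries were longer than both ISC libraries for 2 of 2 genes, as for 20.4% of the 17679 regions and 25.4% of the 8903. Both genes were longer at each of the 3 steps without overlap, which held for 382 of 17679 regions (2.16%) and 172 of 8903 (1.93%). Nothing is read from these shares, since the genes were chosen on the same lengths.

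**Figure D2:**
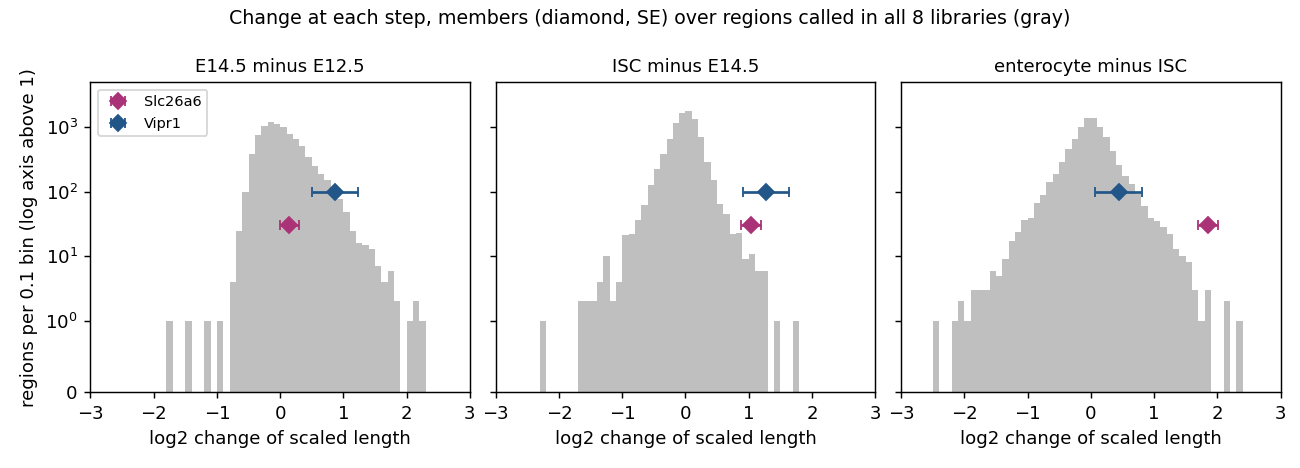
Log2 change of scaled length at each step (horizontal axis) for Slc26a6 and Vipr1 (diamonds with SE, at an arbitrary height) over the number of regions per 0.1 bin among those called in all 8 libraries (gray bars, axis logarithmic above 1). Slc26a6 lies in the bulk at E14.5 minus E12.5 (0.15) and in the far right tail at enterocyte minus ISC (1.86), while Vipr1 is in the tail at ISC minus E14.5 (1.27).

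By order of length, the stages ran E12.5, E14.5, ISC and enterocyte at both genes. For Slc26a6, E12.5 and E14.5 did not differ beyond the SE of their change (0.15 ± 0.16), although with replicate number as a block the SE was 0.13. That SE is shared by all steps of the gene, and the pooled SD of its E12.5 and E14.5 libraries alone was 0.082. For Vipr1, ISC and enterocytes differed by little more than the SE of their change, which is likewise shared by all steps. The pooled SD of log2 scaled length was 0.129 for the ISC and enterocyte libraries of Vipr1 and 0.585 for its E12.5 and E14.5 libraries. The scaled length of the shorter Vipr1 library at E14.5 was 1.13 times that of E12.5 replicate 2.

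The bp called in every library, the shared core, lay at chr9:108756460-108756898 for Slc26a6 and chr9:121551928-121552117 for Vipr1, 439 and 190 bp long. Both cores equal the peak of E12.5 replicate 1, so each domain in the other libraries contained that peak and reached out from it. Higher coordinates are the direction of transcription for both genes, which lie on the plus strand in the GRCm38.p6 table. That strand was taken to hold in mm9.

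From E14.5 on, Slc26a6 reached mainly downstream. Beyond the core, its downstream reach was 0 and 32 bp for E12.5, 357 and 340 bp for E14.5, 960 and 1024 bp for ISC and 4194 and 6677 bp for enterocytes. Its upstream reach in the same order was 0 and 108 bp, 92 and 205 bp, 234 and 440 bp, and 689 and 1358 bp. Of the mean gain of 5130 bp from ISC to enterocytes, 4443.5 bp (86.6%) lay downstream. The 2 enterocyte libraries differed mostly on that side as well.

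Vipr1 reached out to both sides. Its upstream reach was 0 and 75 bp for E12.5, 401 and 764 bp for E14.5, 1179 and 1352 bp for ISC and 1585 and 1657 bp for enterocytes. Downstream it reached 0 and 416 bp, 557 and 577 bp, 1119 and 1797 bp, and 1588 and 2604 bp. The downstream share of its mean gain was 39.7% from E12.5 to E14.5, 56.6% from there to ISC and 64.2% from ISC to enterocytes, against 77.9%, 77.3% and 86.6% for Slc26a6. Over the whole span, from E12.5 to enterocytes, it was 54.4% for Vipr1 and 84.8% for Slc26a6. One-sided growth was usual in these lists. Of 227 regions with 1 peak in each library and at least 1000 bp more in enterocytes than in ISC, the larger side made up a median of 95.4% of the net gain, and 160 exceeded the 86.6% of Slc26a6. A side that was shorter in enterocytes counted as negative, so the larger side could exceed the net gain. Vipr1, with a gain of 993.5 bp, fell just short of that set.

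**Figure D3:**
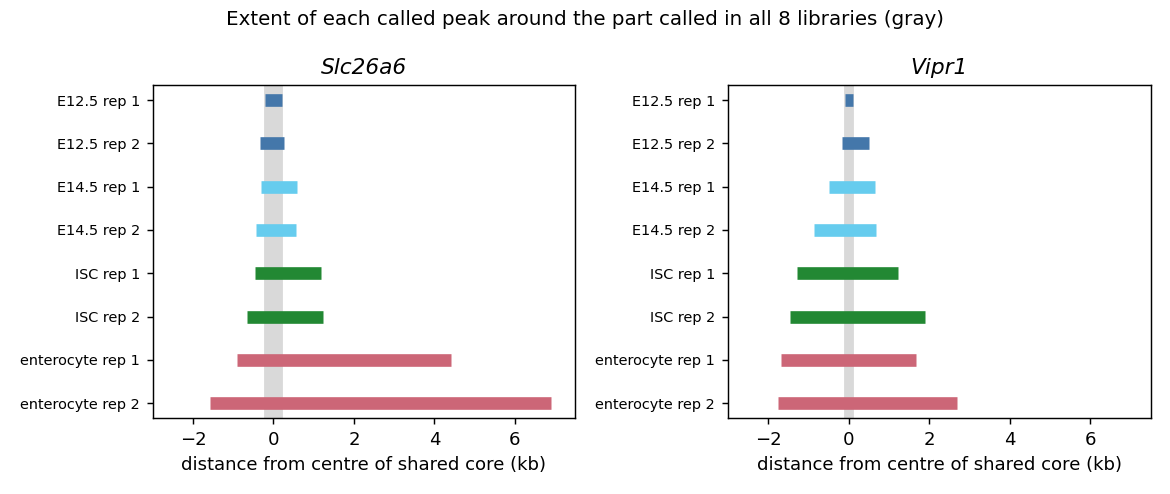
Extent of each called peak (bars, 1 per library) as distance in kb from the centre of the shared core (gray band), with downstream to the right. Slc26a6 extends up to 6677 bp beyond the core downstream and 1358 bp upstream in enterocytes, while Vipr1 reaches 2604 bp downstream and 1657 bp upstream in enterocyte replicate 2 and 1588 and 1585 bp in replicate 1.

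Within its own list, the Slc26a6 peak moved from the shorter peaks to the very longest. By length it ranked 9366 of 11111 and 9964 of 13693 in the E12.5 lists, then 11095 of 16225 and 10741 of 17658 in the E14.5 lists. In ISC it ranked 2947 of 13213 and 3017 of 15617. In enterocytes it ranked 45 of 11650 (the top 0.386%) and 11 of 17007 (the top 0.065%), 4.60 and 8.23 times the median length of those lists.

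Vipr1 entered the longest peaks in ISC. It ranked 10987 of 11111 and 8889 of 13693 in the E12.5 lists, then 9127 of 16225 and 6538 of 17658 in the E14.5 lists. In ISC it ranked 778 of 13213 and 439 of 15617, the top 5.89% and 2.81%. In enterocytes it ranked 404 of 11650 and 226 of 17007, the top 3.47% and 1.33%. Vipr1 was thus in the upper tail of both adult groups, while Slc26a6 went from the top 22.3% and 19.3% in ISC to under 1%.

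Length and enrichment ranked the stages differently. The fold enrichment over input, the authors' value for a peak, was used only as a percentile within the list, where 100 is the strongest peak. Both values describe the same called stretch, so they are not independent measures. Whether a longer call in itself lowers the enrichment value was not tested. At E12.5, Slc26a6 was at percentiles 26.49 and 36.55 by enrichment and at 15.69 and 27.2 by length, a short and weak peak. At E14.5, Slc26a6 was at percentiles 62.2 and 61.3 by enrichment and at 31.6 and 39.2 by length, a short and fairly strong peak. In ISC it was at 28.4 and 38.5 by enrichment and at 77.7 and 80.7 by length, a longer and weaker one. In enterocytes it was at 68.0 and 64.5 by enrichment and above 99 by length. Vipr1 stayed between 45.5 and 60.1 by enrichment in 5 of the 6 libraries after E12.5 and was at 38.3 in ISC replicate 2, while its length percentile went from 43.7 and 63.0 at E14.5 to 96.5 and 98.7 in enterocytes. At E12.5 it was among the weak peaks, at 8.46 and 32.4.

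**Figure D4:**
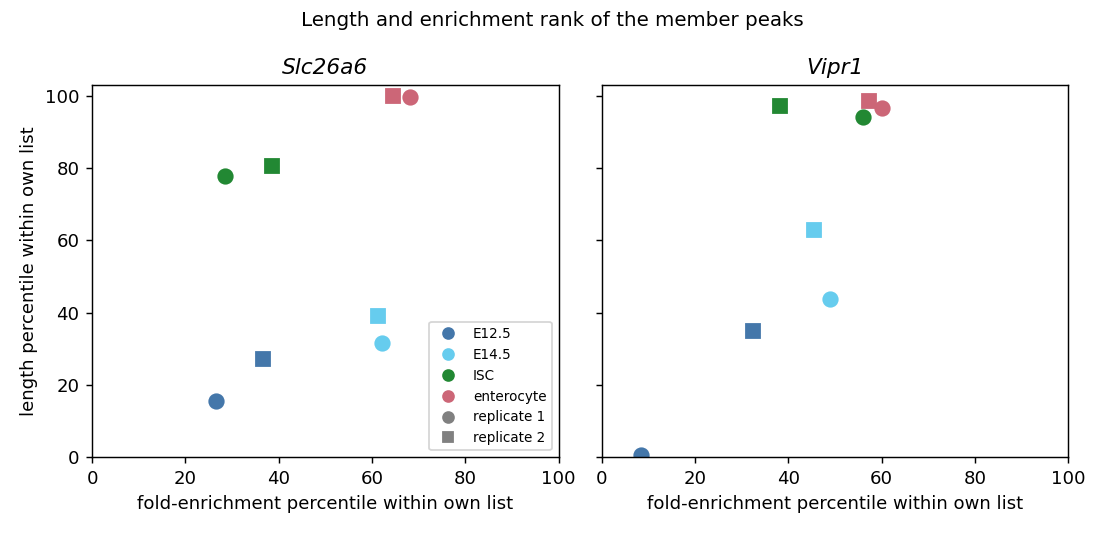
Percentile of the peak by fold enrichment (horizontal) and by length (vertical) within its own list, with colours for the 4 groups, circles for replicate 1 and squares for replicate 2. Slc26a6 is short and fairly enriched at E14.5 (enrichment 62.2 and 61.3, length 31.6 and 39.2) and long with low enrichment in ISC (28.4 and 38.5, length 77.7 and 80.7). At E12.5 it is short with low enrichment (26.49 and 36.55, length 15.69 and 27.2).

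Long domains in enterocytes were mostly long in stem cells too. Both enterocyte libraries covered at least 5322 bp, the shorter Slc26a6 value, in 45 regions, whose median mean length was 4806 bp in ISC and 2478 bp at E12.5. Slc26a6 was among the 7 of these with under 2000 bp in both ISC libraries and among the 16 with under 1000 bp in both E12.5 libraries. For Vipr1, 376 regions covered at least 3363 bp in both enterocyte libraries, with a median of 3357 bp in ISC, and Vipr1 was among the 109 with under 1000 bp in both E12.5 libraries.

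The regions around Slc26a6 that were called throughout did not share its enterocyte length. In the GRCm38 gene order, Slc26a6 lies between Celsr3 and Tmem89. Within 100 kb of its merged region 9 other regions were called, 3 of them in all 8 libraries, at 67.2 and 43.8 kb upstream and 75.0 kb downstream. From ISC to enterocytes these 3 had log2 changes of scaled length between -0.11 and 0.09. The nearest region upstream, 19.8 kb away, was called in both E14.5 libraries (936 and 854 bp, unscaled), and in 1 library each of E12.5 (168 bp), ISC (829 bp) and enterocytes (469 bp). Peaks were also longest in general in the E14.5 lists, with medians of 1279 and 1231 bp. The next were 1158 bp for enterocyte replicate 1 and 1147 bp for ISC replicate 2. A region 56.2 kb upstream, from 108698092 to 108698860, was called in no embryonic library, in 1 ISC library (506 bp) and in both enterocyte libraries (418 and 769 bp). Regions 54.3 kb upstream (1323 bp) and 69.0 kb downstream (165 bp) were called in enterocyte replicate 2 alone. Those at 26.5 and 25.3 kb upstream were called in no enterocyte library.

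Vipr1 lies between Lyzl4 and Sec22c in the same gene order. No other region was called within 100 kb upstream of its merged region, and 164967 bp separated it from the next one. The nearest region downstream, at 12.4 kb, was called in enterocyte replicate 2 alone (545 bp). Further downstream, 3 regions at 58.0, 64.6 and 72.7 kb were called in all 8 libraries. From ISC to enterocytes they had log2 changes of scaled length of 0.53, 0.25 and 0.43, a range that takes in the 0.44 of Vipr1. From E12.5 to enterocytes they had 0.74, 0.28 and 0.91, all below the 2.58 of Vipr1. The last of the 3 covered 958 bp ± 399 at E12.5 and 2381 bp ± 107 in enterocytes (SD, n = 2).

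**Figure D5:**
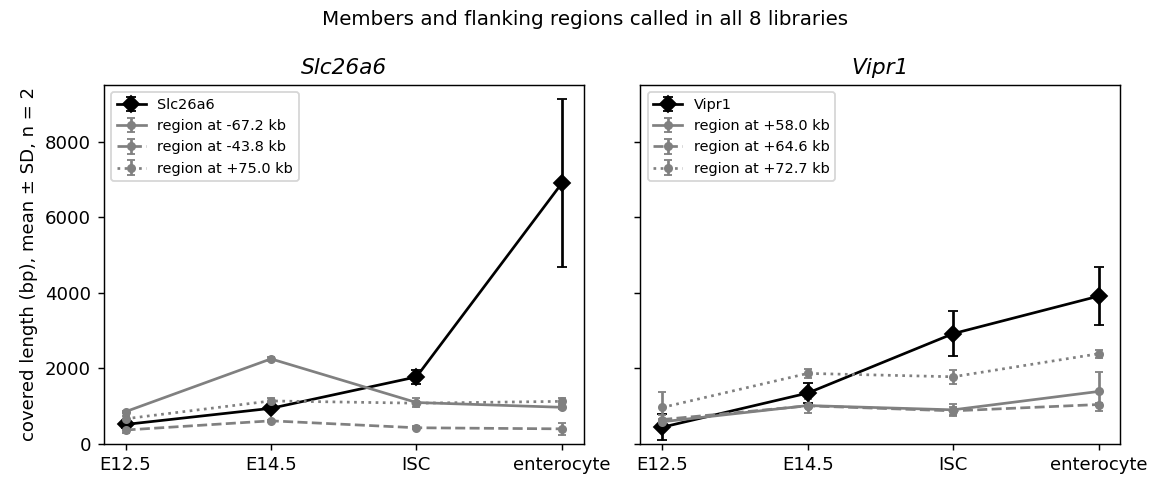
Covered length (bp, mean ± SD, n = 2) of Slc26a6 and Vipr1 (black diamonds) and of the flanking regions within 100 kb called in all 8 libraries (gray, labelled by distance, minus for upstream) in the 4 groups. The 3 regions around Slc26a6 have their means at or below 2245.5 bp and do not follow it in enterocytes, and those beside Vipr1 cover 2.39, 1.62 and 2.49 times their E12.5 mean in enterocytes, unscaled.

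Regions with the most similar course were sought as those with the smallest Euclidean distance between profiles of log2(scaled bp + 200) over the 8 libraries, each centred on its mean, among 17677 candidates. The closest to Slc26a6 were chr4:106977878-106979901, chr11:100564123-100565573 and chr8:107450078-107451641, at distances of 0.34, 0.48 and 0.76. They were called in no embryonic library and covered 1630, 1421 and 1289 bp on average in enterocytes and 294, 209.5 and 213 bp in ISC, so they resembled Slc26a6 in the step between adult groups at far shorter lengths. The embryonic part of their profiles is set by the added 200 bp, and no other pseudocount was used for the distances. The closest to Vipr1 were chr7:17427847-17431224, chr2:60219859-60221737 and chr4:137922076-137924782, at distances of 0.67, 0.70 and 0.77. The first of these was called in all 8 libraries, with 427.5 bp ± 243 for E12.5, 1618.5 bp ± 17.7 for E14.5, 2824 bp ± 776 for ISC and 3234.5 bp ± 186 for enterocytes (SD, n = 2), near the lengths of Vipr1 at every stage. The 2 genes were less alike, at a distance of 1.77, and 450 candidates were closer to Slc26a6 than Vipr1 was. These regions were not matched to genes.

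Other genes of ion secretion, such as the chloride channel gene Cftr, the chloride and bicarbonate exchanger gene Slc26a3 and the cotransporter gene Slc12a2, were listed but not analysed here, since their mm9 positions were not used.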

How the data were processed

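H3K4me3 was profiled in 8 libraries, 2 per group, and 4 input samples served the authors as controls and were not analysed here. Per the file headers, the authors called peaks with MACS 2.0.10.20130712 in broad mode, a q-value cutoff of 0.01 and an effective genome size of 1870000000, per library and with 1 input for both libraries of a group. The lowest −log10 q of a list lay between 1.01 and 1.09, so the lists also hold peaks weaker than that cutoff. It is therefore not the limit that set the extent of the listed peaks. Chromatin fragments were 350 to 700 bp, per the labels' protocols. The build mm9, bcl2fastq 1.8.4, SAMtools 1.2 and Bowtie 1.1.2 are listed in the submitters' processing notes. Per the file headers, each deposited peak has a length in bp, a pileup signal, −log10 p and −log10 q values and a ratio of ChIP to input (fold enrichment), and these values were ranked only within a list. Read counts are not part of the lists, and a missing peak does not show that the mark was absent.

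Peaks overlapping by at least 1 bp or touching were merged into regions. Covered bp per region and library was scaled by the median over regions called in all libraries, and log2(scaled bp + 200) was fitted with limma 3.58.1 in R 4.3.3 for all 4 groups together (4 residual degrees of freedom, a prior of 1.52, trended), which gave the log2 change and its SE. Such changes understate those of short regions. The fit was tested on simulated lengths. No p-value is given, and the members and lists were chosen with earlier results of these data known. Besides the members, the text names the 3 regions closest in profile to each, and flanking regions within 100 kb. The alternatives were pseudocounts of 50 and 1000 bp, no scaling, quantile normalization, lists of equal number (11111 strongest peaks), only peaks whose −log10 q was 10 or more, clipping to the window, replicate number as a block and each library left out.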

Additional observations from a re-analysis of the deposited data

How the results depend on the processing

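The log2 changes of scaled length kept their sign in every setting run, except for Slc26a6 with quantile normalization at E14.5 against E12.5 (-0.44) and with peaks of a −log10 q of at least 10 in ISC against E14.5 (-0.57, with ISC replicate 1 at 0 bp). With all libraries kept, the other values that moved by more than the spread between replicates were these. For E14.5 against E12.5, Slc26a6 had 0.69 without scaling and, with a −log10 q of at least 10, which left neither E12.5 peak, the fitted changes were 2.22 for Slc26a6 and 2.63 for Vipr1; these depend on the pseudocount and are no bounds. For ISC against E14.5, Slc26a6 had 1.17 and 0.65 with pseudocounts of 50 and 1000 bp, 0.79 without scaling and 1.47 with quantile normalization, and Vipr1 had 0.90 with 1000 bp and 1.01 without scaling. For enterocytes against ISC, Slc26a6 had 1.51 with 1000 bp and 3.48 with a −log10 q of at least 10 (ISC replicate 1 at 0 bp), and Vipr1 had 0.23 with quantile normalization. Apart from the lost peaks, the cause was not tested. Clipping to the window changed nothing, since no peak crossed its edges.

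With 1 library left out, that spread is no yardstick. It comes from the same 2 libraries per group, so apart from the renewed scaling a value cannot move by more than it. Slc26a6 had 0.059 without E12.5 replicate 1, 0.98 without E14.5 replicate 1, and 2.11 and 1.63 without enterocyte replicates 1 and 2. Slc26a6 ranged from 0.059 to 0.211 for E14.5 against E12.5, from 0.98 to 1.08 for ISC against E14.5 and from 1.63 to 2.11 for enterocytes against ISC. Vipr1 ranged from 0.29 to 1.44, from 1.11 to 1.43 and from 0.34 to 0.56 in the same order. The widest of these ranges was that of Vipr1 for E14.5 against E12.5. The lone library left in a group was assumed to vary like the others. With replicate number as a block the changes were the same by construction (0.15, 1.03 and 1.86 for Slc26a6) and the SE was 0.13 for Slc26a6 and 0.27 for Vipr1, so the 0.15 of Slc26a6 then exceeded its SE. Deviations of same-numbered libraries correlated between 0.02 and 0.31 over regions, so the numbers were not taken to pair the libraries. With 2 libraries per group and lists that differ in length, changes near the size of the SE cannot be read either way. That SE pools all 4 groups, so the libraries of a given step can vary less or more than it shows.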
